A study of Mus musculus with 15 samples.

Results

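The ribosome biogenesis factors described here are 49 genes whose proteins build the 2 ribosomal subunits in the nucleolus. The genes were chosen by name for that function, but with earlier results of these data known. They were taken from 55266 annotated mouse genes, and each gene's level is the sum of the deposited read counts of its transcripts. At least 1 read was found for 48 of them, and 39 had enough reads to be tested. RNA was sequenced from NIH3T3, a mouse fibroblast cell line first grown from embryos, in which the study asked which transcription depends on mTORC1 in the nucleus.

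Every library came from an NIH3T3 line with a stably integrated, doxycycline-inducible histone H2A fusion, and all cells were starved before treatment. There were 3 libraries in each of 5 groups. H2A-TerminaTOR cells, in which histone H2A holds a genetically encoded mTORC1 inhibitor in the nucleus, received cycloheximide, a blocker of translation, and PDGF, a growth factor for fibroblasts. H2A-mCherry cells, the control line, received either cycloheximide and PDGF, or rapamycin, a drug that inhibits mTORC1, and PDGF, or PDGF alone, or no PDGF. TerminaTOR was thus measured only under cycloheximide. The fusion and the cell line that carries it cannot be told apart. The sources used here give no dose or time for any agent, nor the length of starvation. Whether the replicates of a group were separate cultures is not stated, so each p-value measures only the spread between these libraries, which may be technical.

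Ribosome biogenesis starts when RNA polymerase I copies the ribosomal RNA genes into a long precursor. Small nucleolar ribonucleoproteins of the box C/D and box H/ACA classes modify that precursor, a large complex called the small subunit processome folds and cuts the part that becomes the 40S subunit, and a second set of GTPases, helicases and scaffold proteins matures the 60S subunit. The pathway is a major consumer of a growing cell's energy, growth factors raise it, and mTORC1 and the transcription factor MYC are among its known regulators.

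MYC and related factors bind the E-box, the palindrome CACGTG, which reads the same on both strands. RefSeq promoter windows of GRCm38.p6, which run 250 bases upstream of a gene's start and 50 bases downstream, were found for 42 members, and 12 of these (28.6%) held the E-box. Among members that passed the filter on low counts it was 7 of 32 (21.9%). It occurred in 802 of 6896 tested genes with a window (11.6%) and in 2187 of 27025 genes in all (8.09%). The median GC content was 59.5% in the members' windows, 61.0% in those of tested genes and 52.7% in those of all genes. The stretches of the tested members *Nop2*, which encodes an rRNA methyltransferase of the large subunit, and *Imp4*, which encodes a small subunit processome protein, are shown because their E-boxes lie upstream of the annotated start, at 60 and 121 bases before it. They lie at chr6:125131786-125131865 (*Nop2*) and chr1:34439671-34439750 (*Imp4*), both on the plus strand. The capitals mark the E-box, and a match is a description of the sequence and not evidence of binding.
Nop2: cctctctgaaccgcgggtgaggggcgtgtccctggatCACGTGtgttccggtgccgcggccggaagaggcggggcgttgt
Imp4: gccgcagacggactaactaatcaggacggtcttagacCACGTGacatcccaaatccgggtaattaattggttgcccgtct

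Libraries held between 3466202 and 6777780 counts in total. Of 8 fibroblast markers, the collagen genes *Col1a1* (2080 to 5320 CPM), *Col1a2* and *Col3a1* were the highest in every library, whereas *Pdgfra*, a PDGF receptor gene, had 2.27 to 31.1 CPM and *Pdgfrb*, the other, 0 to 1.87 CPM, with no read in mCherry cells under cycloheximide (CPM is a gene's counts relative to its library's total, after TMM scaling, which corrects for differences in RNA composition between libraries). The summed level was at most 26.1 CPM for 6 macrophage markers, most of it from *Cd14* (3.45 to 21.5 CPM), 4.39 CPM for 3 endothelial markers and 3.88 CPM for 4 epithelial markers, and *Adgre1*, *Epcam* and *Krt18* among them had no read. The summed level of the 8 fibroblast markers ran from 8610 to 9140 CPM with TerminaTOR against 7570 to 7910 CPM in mCherry cells, both under cycloheximide, and from 4640 to 5020 CPM with rapamycin against 7310 to 7630 CPM with PDGF alone. Mitochondrial transcripts took 6.32% to 6.63% of counts with TerminaTOR, 6.28% to 6.64% with cycloheximide, 9.85% to 11.04% with rapamycin, 8.69% to 9.30% with PDGF and 11.1% to 12.2% without PDGF. Their part in the results was not tested.

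Of the 10 members that could not be tested, *Grwd1* had no read in any library, and *Nop56* (4 reads over the 15 libraries), *Nhp2* (9), *Noc2l* (15), *Tsr1* (19), *Nolc1* (21), *Pes1* (22), *Utp18* (48), *Rrp9* (60) and *Nol11* (77) had few. The counts are per transcript, and how reads shared by overlapping transcripts were treated is not stated, so a low count here need not be a low level. For the same reason levels are compared between groups and not between genes. Of the 39 tested members, 33 had at least 10 reads in every library, and the other 6 were *Gar1*, *Mybbp1a*, *Noc4l*, *Nop16*, *Rrp1b* and *Wdr75*. A member that passed the filter only through the groups where it is high had to differ, so the counts of members are descriptions. Over the 33 members, 23 rose with PDGF and 26 with rapamycin, 22 fell and 5 rose with cycloheximide, 5 rose with TerminaTOR, and 33 rose with rapamycin against no PDGF. In the annotation 21 members are overlapped by a gene on the opposite strand, among them *Heatr1*, *Gnl2*, *Gnl3*, *Rrp1b*, *Dkc1*, *Wdr12*, *Bop1*, *Nop14* and *Pdcd11*, and reads of such pairs cannot be told apart because the strandedness of the libraries is not given.

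Summed over all 49 members, the level was highest with rapamycin and PDGF. It was 4837, 4855 and 5000 CPM in the TerminaTOR libraries, 4356, 4604 and 4615 CPM in mCherry cells with cycloheximide and PDGF, 9571, 9753 and 10070 CPM with rapamycin and PDGF, 6029, 6098 and 6143 CPM with PDGF, and 3542, 3594 and 3757 CPM without PDGF. No library overlapped one of another group. As a share of raw counts, without TMM scaling, the members took 0.450% to 0.473% in the TerminaTOR libraries, 0.397% to 0.430% with cycloheximide, 0.905% to 0.912% with rapamycin, 0.602% to 0.624% with PDGF and 0.430% to 0.443% without PDGF, so the order of the cycloheximide group and the group without PDGF depends on the scaling. *Ddx21* supplied between 19.8% and 27.6% of the summed level of a group. In bulk RNA, fewer cells with a transcript and less of it per cell cannot be told apart.

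**Figure D1:**
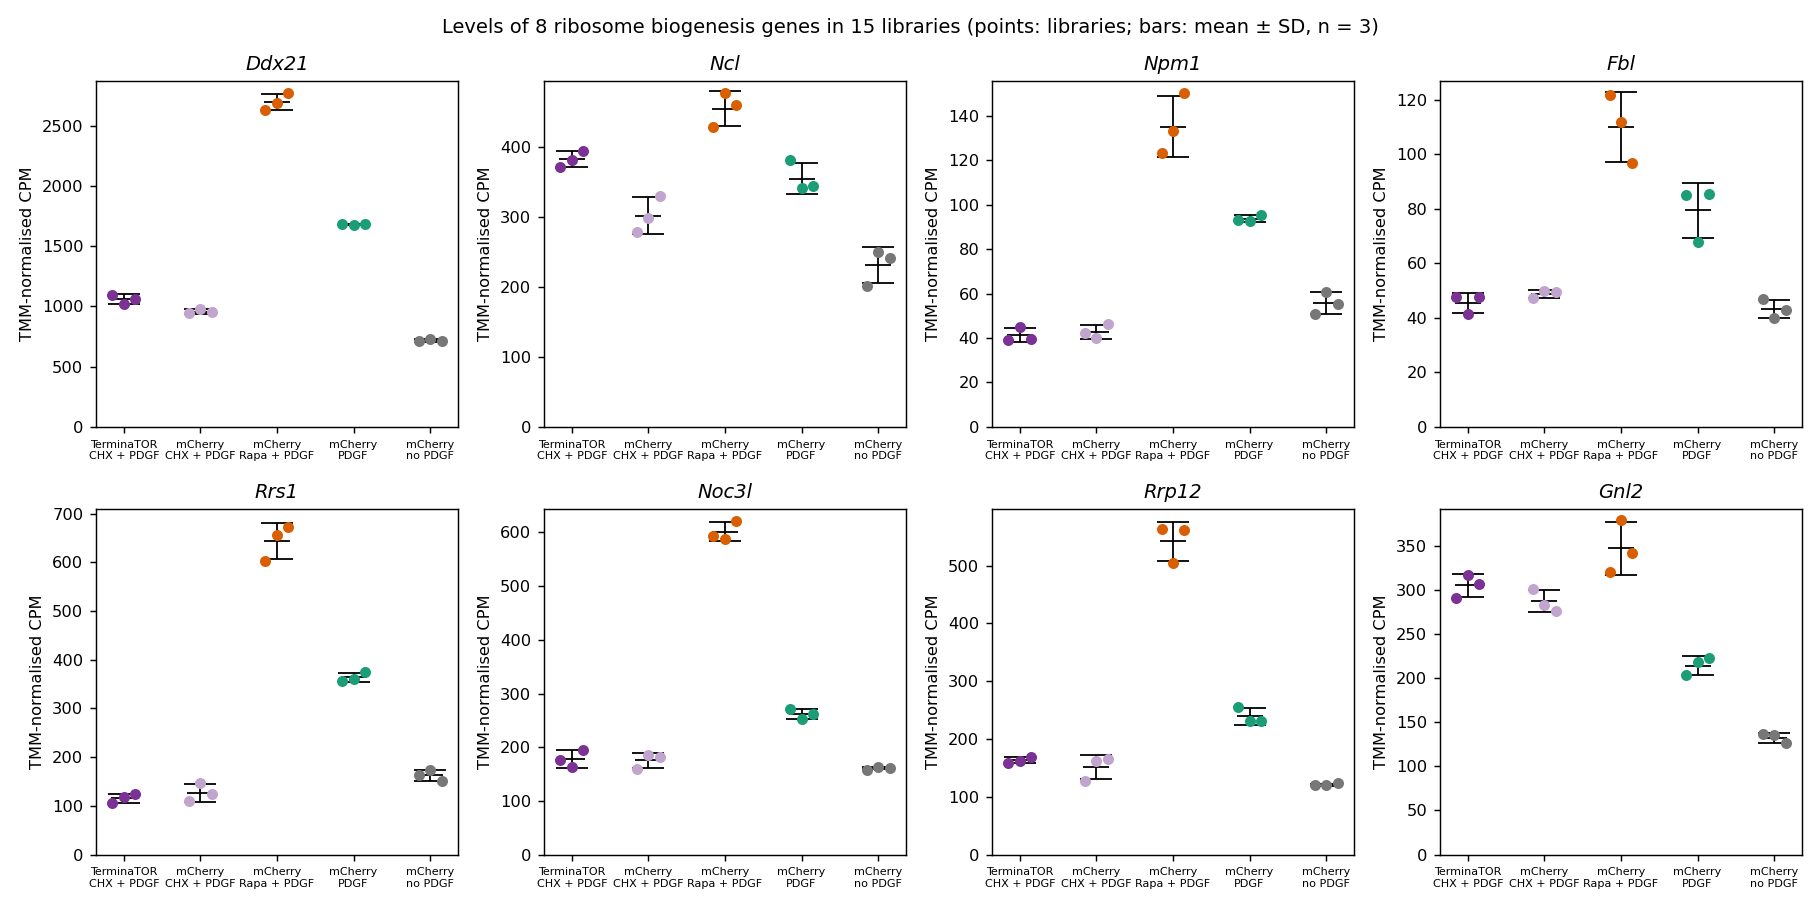
TMM-normalised CPM of 8 members (vertical axes, each starting at 0) in the 5 groups; points are libraries and bars the mean ± SD of 3. The libraries with rapamycin and PDGF lie above those with PDGF alone in all 8 panels, and those without PDGF lie below those with PDGF.

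PDGF raised most of the tested members. Against cells without PDGF, 27 of the 39 rose and 0 fell at an adjusted p under 0.05, with edgeR's quasi-likelihood test and Benjamini-Hochberg adjustment over all 10603 tested genes. At an unadjusted p under 0.05, 30 rose and 0 fell, and DESeq2 and limma-voom also called 0 lower. Of all tested genes, 20.1% rose and 16.9% fell. With libraries scaled by their totals in place of TMM, 24 members rose and 2 fell, *Nol6* (-0.38) and *Bms1* (-0.39). The median log2 change was 0.70 over the tested members and -0.01 over all tested genes. Both box C/D proteins tested rose, as did 3 of 4 nucleolar proteins, 13 of 17 small subunit factors and 8 of 14 large subunit factors, whereas 0 of the 2 tested members of the PeBoW complex passed the test.

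Among the nucleolar proteins, *Ddx21* (ENSMUSG00000020075.8, GRCm38 chromosome 10, 62580251 to 62602281), an RNA helicase that couples precursor synthesis to its processing, had 1682, 1677 and 1684 CPM with PDGF, against 710, 733 and 712 CPM without it. Both groups were tight and far apart, and the log2 change was 1.23 ± 0.05 (SE, adjusted p = 8.73e-32). *Ncl*, which encodes nucleolin, an abundant protein that binds the precursor, rose by 0.62 ± 0.07 on the log2 scale. *Npm1*, which encodes nucleophosmin, a scaffold of the outer nucleolus, rose by 0.75 ± 0.11. *Mybbp1a*, a nucleolar regulator of polymerase I, had 19 reads with PDGF and 6 without it and did not pass the test.

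The box C/D proteins carry out 2′-O-methylation of ribosomal RNA. *Fbl*, the methyltransferase fibrillarin, reached 85.1, 68.0 and 85.5 CPM with PDGF, against 46.9, 40.1 and 43.0 CPM without it, and rose by 0.87 ± 0.12. *Nop58*, a core scaffold of the same particles, had 22.9, 26.9 and 23.0 CPM with PDGF and 13.6, 10.5 and 10.3 CPM without it. All PDGF libraries lay above all libraries without PDGF for both genes, and *Nop58* rose by 1.07 ± 0.19 (adjusted p = 1.78e-06). Of the box H/ACA proteins, which make pseudouridine, the core protein *Gar1* rose by 2.45 ± 0.68 on 37 against 8 reads. *Gar1* passed the filter through groups where it was higher, so its rises here and below are given as values only. Coding transcripts held 20.7% of its reads. *Dkc1*, the pseudouridine synthase dyskerin, did not pass the test, with 54.8 ± 2.94 CPM with PDGF and 48.8 ± 5.90 CPM without it (SD, n = 3 each), and its log2 change of 0.17 had an adjusted p of 0.305 in edgeR's test.

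Small subunit factors rose by up to 2.07 on the log2 scale. That was *Noc4l*, a partner of Nop14 in the processome, with 96 against 28 reads. *Wdr75*, of the t-UTP group that links polymerase I transcription to processing, rose by 1.28 ± 0.39 on 89 against 46 reads, and its adjusted p was 0.0621 without PDGF replicate 1. Coding transcripts held 2.4% of the *Wdr75* reads. *Noc4l* and *Wdr75* had under 10 reads in some libraries, so their rises are given as values only. *Heatr1* (ENSMUSG00000050244.9, GRCm38 chromosome 13, 12395027 to 12440289), a t-UTP protein, had 89.5, 95.4 and 86.0 CPM with PDGF, against 39.1, 42.5 and 46.2 CPM without it. The *Heatr1* groups did not overlap, and its log2 change was 1.08 ± 0.10 (adjusted p = 2.02e-14). The small subunit members *Utp20* and *Ddx10* had the smallest called rises, 0.21 and 0.26, and both calls were lost without the replicate 1 library that had no PDGF and when libraries were scaled by their totals.

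Among large subunit factors, *Rrp1b*, a nucleolar homologue of yeast Rrp1, rose by 1.81 ± 0.38 on 121 against 43 reads. Only 0.324% of the *Rrp1b* reads fell on coding transcripts. *Rrp1b* also had under 10 reads in some libraries, so its rise is given as a value only. *Rrs1* (ENSMUSG00000061024.8, GRCm38 chromosome 1, 9545408 to 9547455), which recruits the 5S particle to the nascent 60S subunit in yeast, had 356, 361 and 374 CPM with PDGF, against 163, 174 and 151 CPM without it. Every PDGF library exceeded every library without PDGF, and the log2 change was 1.16 ± 0.08 (adjusted p = 8.49e-22). Of the PeBoW complex, which acts in 60S maturation, *Bop1* had 40.8, 39.3 and 42.9 CPM with PDGF, against 42.2, 37.5 and 41.0 CPM without it. *Wdr12* had 25.9, 18.6 and 18.4 CPM with PDGF, against 30.0, 19.2 and 22.8 CPM without it. Both pairs of groups overlapped, and the adjusted p-values in edgeR's test were 0.893 for *Bop1* and 0.447 for *Wdr12*.

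Rapamycin with PDGF left most members above their level with PDGF alone. Of the 39 tested, 27 rose and 0 fell with edgeR, and 30 and 0 at an unadjusted p under 0.05, while DESeq2 and limma-voom also called 0 lower. Of all tested genes, 16.3% rose and 16.1% fell. The median log2 change was 0.60 over the tested members and 0.02 over all tested genes. This comparison shares the PDGF libraries with the preceding one and with that of cycloheximide, so they are not independent. Both box H/ACA proteins tested and both PeBoW proteins tested rose, as did 3 of 4 nucleolar proteins, 11 of 17 small subunit factors and 10 of 14 large subunit factors.

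Of the nucleolar proteins, *Ddx21* had 2634, 2690 and 2769 CPM with rapamycin and PDGF, against 1682, 1677 and 1684 CPM with PDGF alone, a log2 change of 0.68 ± 0.05 (adjusted p = 2.14e-18). *Ncl* rose by 0.36 ± 0.07 and *Npm1* by 0.53 ± 0.10. In the box C/D group *Fbl* rose by 0.47 ± 0.11, whereas *Nop58* had 31.2 ± 2.55 CPM with rapamycin and 24.2 ± 2.28 CPM with PDGF alone (SD, n = 3 each) and an adjusted p of 0.0955. *Dkc1* had 96.9, 104 and 87.6 CPM with rapamycin and PDGF, against 58.1, 52.5 and 53.9 CPM with PDGF alone. Its rapamycin libraries stood clear of the others, and the log2 change was 0.81 ± 0.12 (adjusted p = 7.83e-08). *Gar1* rose by 1.48 ± 0.51 on 93 against 37 reads, a call that was lost without rapamycin replicate 3 and without PDGF replicate 2.

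The small subunit factors with the largest rises were *Heatr1* and *Rrp12*. *Heatr1* had 213, 204 and 210 CPM with rapamycin and PDGF, against 89.5, 95.4 and 86.0 CPM with PDGF alone, a log2 change of 1.21 ± 0.10 (adjusted p = 7.45e-18). *Rrp12* (ENSMUSG00000035049.4, GRCm38 chromosome 19, 41862851 to 41896173), a repeat protein needed for export of pre-ribosomes in yeast, had 563, 504 and 561 CPM with rapamycin and PDGF, against 256, 231 and 231 CPM with PDGF alone. Every rapamycin library of these genes lay far above every PDGF library, and *Rrp12* changed by 1.18 ± 0.07 (adjusted p = 5.94e-23). *Nol6* and *Bms1*, a processome protein and its GTPase, rose by 0.66 ± 0.09 and 0.49 ± 0.10. The t-UTP members *Utp4* and *Wdr75* and the processome members *Wdr3*, *Imp4*, *Nop14* and *Noc4l* did not pass the test, with a log2 change of -0.00 for *Wdr75* and between 0.13 and 0.73 for the others.

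In the large subunit group, *Noc3l* (ENSMUSG00000024999.7, GRCm38 chromosome 19, 38788128 to 38819237), which moves with 60S precursors through the nucleus in yeast, had 594, 588 and 621 CPM with rapamycin and PDGF, against 271, 252 and 262 CPM with PDGF alone. The groups were far apart for their spread, and the log2 change was 1.20 ± 0.07 (adjusted p = 9.38e-25). *Ddx18*, a helicase, rose by 0.94 ± 0.14, *Wdr12* by 0.90 ± 0.20, *Ebna1bp2*, the homologue of yeast Ebp2, by 0.89 ± 0.19, and *Rrs1* by 0.82 ± 0.07. *Bop1* had 67.7, 71.1 and 64.6 CPM with rapamycin and PDGF, against 40.8, 39.3 and 42.9 CPM with PDGF alone. *Bop1* rose by 0.72 ± 0.13 (adjusted p = 3.47e-06), and its 3 rapamycin libraries exceeded the 3 with PDGF alone.

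Set against cells without PDGF, rapamycin with PDGF raised 39 of 39 tested members and lowered 0, also at an unadjusted p under 0.05 and with DESeq2 or limma-voom. Of all tested genes, 27.8% rose and 25.5% fell in that comparison. The members' log2 changes ran from 0.35 for *Bms1* to 3.93 for *Gar1*, with a median of 1.27, against 0.02 over all tested genes. Over the 33 members with at least 10 reads in every library the median was 1.04. *Heatr1* rose by 2.29 ± 0.10, *Rrp12* by 2.17 ± 0.08, *Rrs1* by 1.98 ± 0.08, *Ddx21* by 1.91 ± 0.05 and *Noc3l* by 1.90 ± 0.07. With libraries scaled by their totals, 33 of the 39 members rose and 0 fell, and *Bms1* had a log2 change of -0.03.

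**Figure D2:**
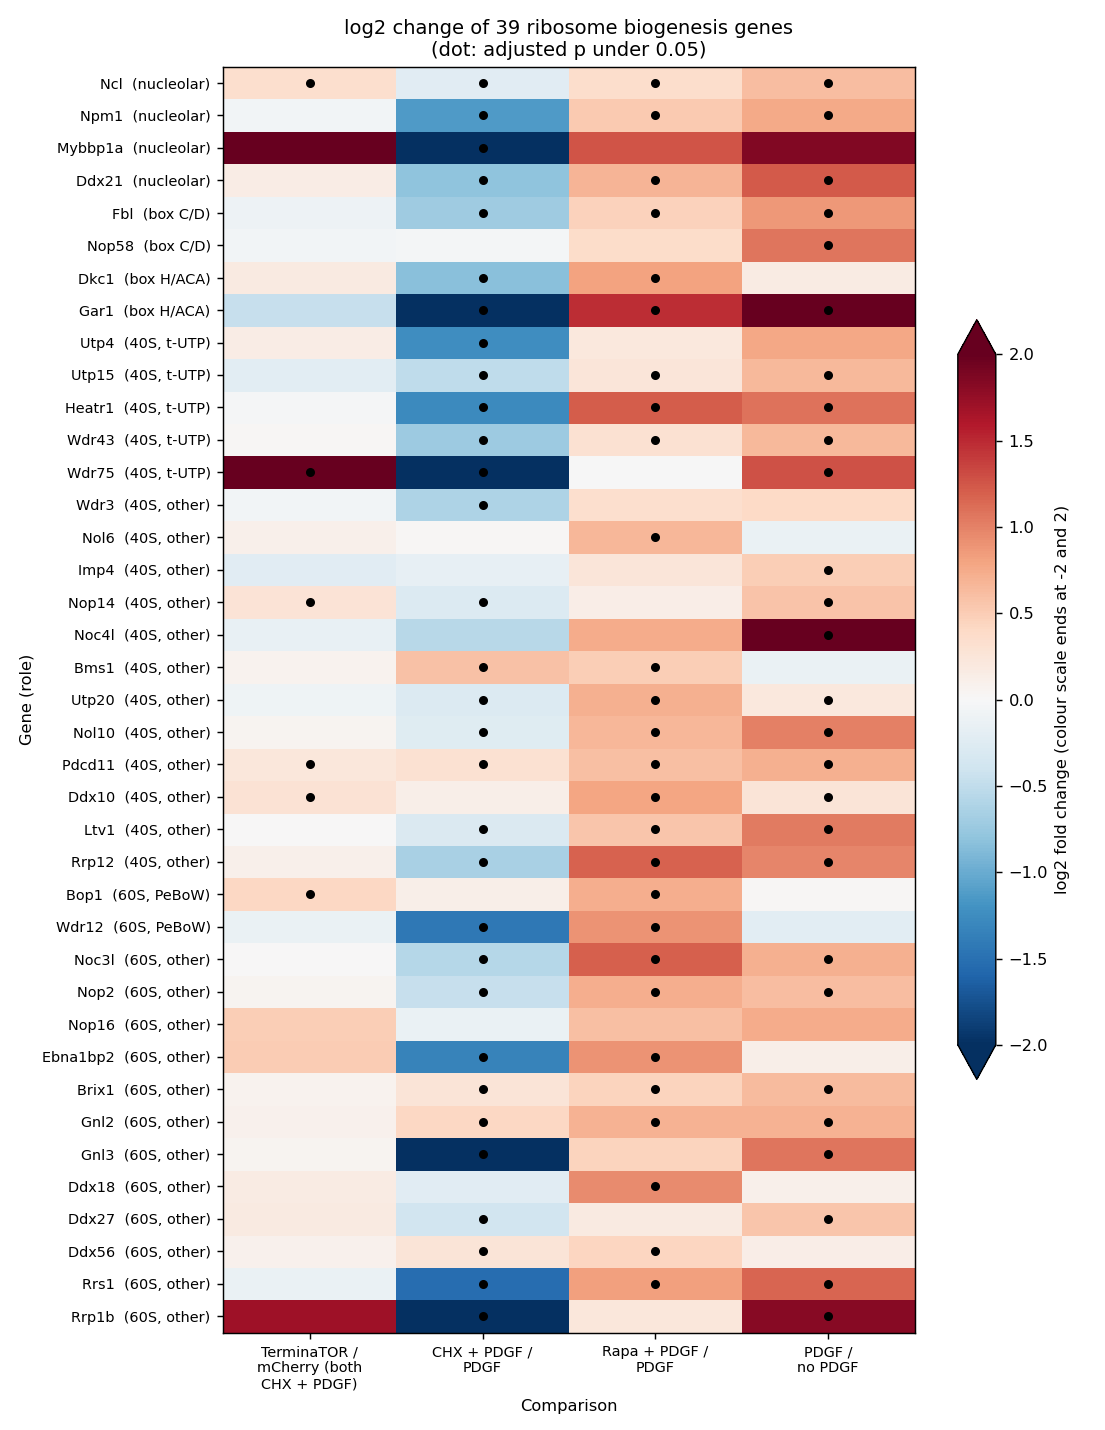
Log2 fold change (colour, which ends at -2 and 2) of the 39 tested members, grouped by role down the page, in the 4 comparisons; a dot marks an adjusted p under 0.05 in edgeR's test. The columns for PDGF and rapamycin hold 27 dots each, all in red cells; the cycloheximide column holds 26 dots in blue cells and 5 in red, and the TerminaTOR column 6 dots.

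Cycloheximide with PDGF lowered most members relative to PDGF alone and raised a few. Of the 39 tested, 26 fell and 5 rose with edgeR, against 19.6% lower and 21% higher of all tested genes. The median log2 change was -0.51 over the tested members and 0.01 over all tested genes. All 4 nucleolar proteins, both box H/ACA proteins and all 5 t-UTP proteins that were tested fell. Among the other 12 small subunit factors tested, 6 fell and 2 rose, and among the 14 large subunit factors tested, 8 fell and 3 rose. These role counts include *Mybbp1a*, *Gar1*, *Wdr75* and *Rrp1b*, which passed the filter through groups where they were higher, so the counts are descriptions.

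*Npm1* (ENSMUSG00000057113.13, GRCm38 chromosome 11, 33152287 to 33163206) had 42.2, 40.1 and 46.1 CPM with cycloheximide and PDGF, against 93.1, 92.5 and 95.5 CPM with PDGF alone. The groups stood far apart, and *Npm1* fell by 1.13 ± 0.11 on the log2 scale (adjusted p = 3.62e-14). *Ddx21* fell by 0.81 ± 0.05, *Fbl* by 0.70 ± 0.12 and *Dkc1* by 0.84 ± 0.13, while *Ncl* fell by 0.23 ± 0.07. *Nop58* had 23.6 ± 2.50 CPM with cycloheximide and 24.2 ± 2.28 CPM with PDGF alone (SD, n = 3 each), and its log2 change of -0.03 had an adjusted p of 0.899. *Mybbp1a* had 0 reads with cycloheximide and 19 with PDGF alone, which makes it at least 7.2-fold lower against a floor of 3 reads over the group. *Mybbp1a* passed the filter through groups where it was higher, so its fall is given as a value only. Coding transcripts held 0% of its reads.

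The lowest log2 changes belonged to members with most of their reads on transcripts with a retained intron. *Rrp1b*, *Wdr75* and *Gar1* had under 10 reads in some libraries and passed the filter through the groups where they were higher, so their falls are given as values only. Over the 33 members with at least 10 reads in every library the median was -0.39. *Rrp1b* had 4 reads with cycloheximide and 121 with PDGF alone, a log2 change of -4.97 ± 0.56. *Wdr75* had 5 against 89 reads (-4.25 ± 0.55), and *Gar1* 4 against 37 (-3.24 ± 0.76). *Gnl3*, which encodes nucleostemin, a nucleolar GTPase, had 3.31, 4.03 and 5.19 CPM with cycloheximide and PDGF, against 30.0, 24.6 and 29.4 CPM with PDGF alone, and changed by -2.73 ± 0.24. Coding transcripts held 0% of the *Gnl3* reads, and the gene overlaps *Snord19* and *Snord69* on its own strand. The 4 genes were each below the PDGF level in all 3 cycloheximide libraries.

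Members with most of their reads on coding transcripts fell as well, by less than *Rrp1b*, *Wdr75*, *Gar1* and *Gnl3*. However, *Utp4*, with 96.7% of its reads on a retained-intron transcript, fell by 1.25 ± 0.36, which was less than the coding members named next. *Rrs1* had 110, 147 and 124 CPM with cycloheximide and PDGF, against 356, 361 and 374 CPM with PDGF alone. The cycloheximide libraries lay far below every PDGF library, and *Rrs1* fell by 1.52 ± 0.08 (adjusted p = 3.77e-27). *Wdr12* fell by 1.43 ± 0.23, *Ebna1bp2* by 1.33 ± 0.21 and *Heatr1* by 1.28 ± 0.11.

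The 5 members that rose act in both subunits. *Bms1*, a GTPase of the processome, had 108, 112 and 113 CPM with cycloheximide and PDGF, against 74.9, 76.2 and 69.8 CPM with PDGF alone, and rose by 0.59 ± 0.10 (adjusted p = 3.19e-07). *Gnl2* (ENSMUSG00000028869.13, GRCm38 chromosome 4, 125016585 to 125055380), a GTPase of 60S export, had 301, 283 and 276 CPM with cycloheximide and PDGF, against 203, 218 and 223 CPM with PDGF alone. Its groups did not overlap, and the log2 change was 0.42 ± 0.07 (adjusted p = 9.77e-07). *Pdcd11*, the homologue of yeast Rrp5, which acts in both subunits, rose by 0.30 ± 0.07, and the 60S factors *Brix1* and *Ddx56*, a helicase, each rose by 0.26 (adjusted p = 0.0278 and 0.0475). The call for *Ddx56* was lost under 20 of 24 alternative settings and that for *Brix1* under 8, so 3 rises held throughout those settings, and 3 members rose without PDGF replicate 1 or 3 or without cycloheximide replicate 2.

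Relative to cells without PDGF, cycloheximide with PDGF left 15 of 39 members higher (38.5%) and 8 lower (20.5%), against 24.6% higher and 22.8% lower of all tested genes, so the share that was lower was near that of all genes. *Gnl2* (1.12 ± 0.07), *Pdcd11* (1.01 ± 0.07), *Nop58* (1.04 ± 0.18) and *Brix1* (0.89 ± 0.10) were higher, and *Rrp1b* (-3.16 ± 0.65), *Gnl3* (-1.66 ± 0.25), *Wdr12* (-1.63 ± 0.22) and *Rrs1* (-0.36 ± 0.08) were lower. With libraries scaled by their totals, 7 members were higher and 19 lower, with a median of -0.24 in place of 0.15, beside 1615 higher and 4400 lower of all 10603 genes, with a median of -0.40.

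The deposited counts are per transcript, so spliced and intron-retaining transcripts of a member can be set side by side. With each transcript tested alone, 37 coding and 18 retained-intron transcripts of the members were tested. Under cycloheximide 22 of the 37 coding transcripts fell and 5 rose, with a median of -0.43. Of the 18 retained-intron transcripts 14 fell and 0 rose, with a median of -2.30. Some of these 18 had almost no reads with cycloheximide and passed the filter through groups where they were higher. A *Rrp1b* transcript had 1 read with cycloheximide and 50 with PDGF alone. Such transcripts had to differ, so the counts and medians of retained-intron transcripts, here and below, are descriptions. No retained-intron transcript of a member rose at an unadjusted p under 0.05 or with DESeq2 or limma-voom either. Of all transcripts tested, 18% fell and 19.1% rose; of all retained-intron transcripts, 26.1% fell and 7.89% rose, with a median of -0.46. The members' reads on retained-intron transcripts made up 0.463% to 0.520% of member reads with TerminaTOR, 0.492% to 0.565% with cycloheximide, 1.37% to 1.57% with rapamycin, 1.55% to 1.74% with PDGF and 1.22% to 1.45% without PDGF.

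The coding transcript of *Fbl* fell by 0.53 ± 0.12 under cycloheximide, whereas 1 of its retained-intron transcripts had 7, 6 and 7 reads with cycloheximide and PDGF, against 29, 22 and 40 reads with PDGF alone, a log2 change of -2.31 ± 0.44. For *Wdr43*, a t-UTP gene, the coding transcript fell by 0.60 ± 0.12, and a retained-intron transcript had 2, 0 and 4 reads with cycloheximide and 22, 17 and 15 with PDGF alone. The difference between transcript types was not tested. *Nop58* was an exception, with 42 reads on its retained-intron transcript under cycloheximide and 28 with PDGF alone, and *Ddx56* another, with 36 and 25; neither passed the test.

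Under PDGF, 7 of the 18 retained-intron transcripts rose and 0 fell (also 0 at an unadjusted p under 0.05, with DESeq2 and with limma-voom), with a median of 1.09, and 24 of the 37 coding transcripts rose, with a median of 0.60. Of all transcripts, 18.1% rose and 14.9% fell with PDGF. With rapamycin, 24 of the 37 coding transcripts rose, and 0 of the 18 retained-intron transcripts passed the test in either direction with edgeR. The median log2 change was nonetheless 0.491 for the retained-intron and 0.575 for the coding transcripts of the members. Of all retained-intron transcripts, 10.6% rose and 3.19% fell with rapamycin. At an unadjusted p under 0.05, 1 of those 18 rose with rapamycin, and limma-voom called 2 and DESeq2 0. Of all transcripts, 13.2% rose and 14% fell with rapamycin. With TerminaTOR, 5 of the 37 coding transcripts rose and 0 of the 18 retained-intron transcripts passed the test by any of the 3 tools, although 1 rose and 1 fell at an unadjusted p under 0.05. Of all transcripts, 1.73% rose and 1.88% fell with TerminaTOR.

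**Figure D3:**
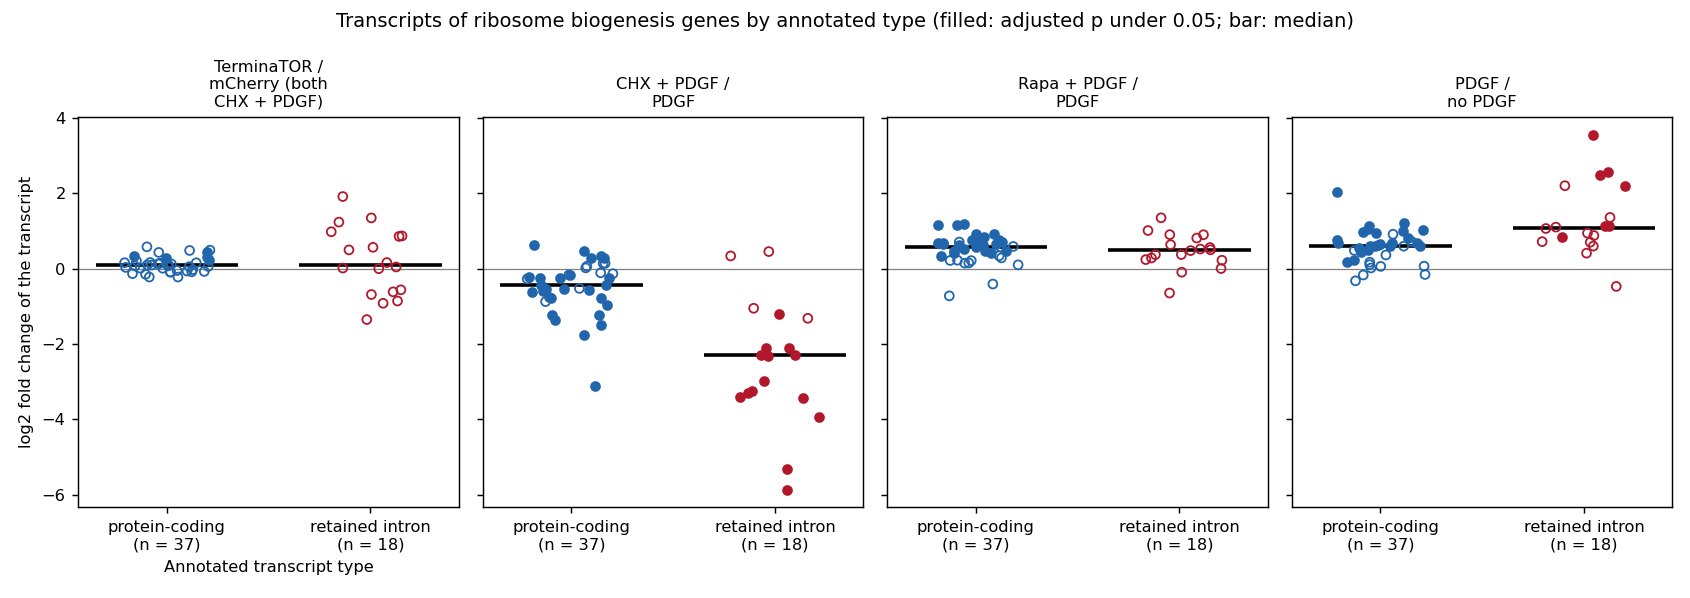
Log2 fold change of 37 protein-coding and 18 retained-intron transcripts of the members in the 4 comparisons; points are transcripts, filled where the adjusted p was under 0.05, and bars are medians. In the cycloheximide panel the median is -0.43 for coding and -2.30 for retained-intron transcripts. Some of the latter had almost no reads with cycloheximide and passed the filter through groups where they were higher.

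TerminaTOR moved few members. Against mCherry cells under the same cycloheximide and PDGF, 6 of the 39 tested members (15.4%) rose and 0 fell with edgeR. Of all tested genes, 2.35% rose and 2.57% fell. At an unadjusted p under 0.05, 9 members rose and 1 fell. DESeq2 and limma-voom each called 6 members higher and 0 lower, with *Ddx21* among them and not *Wdr75*. The median log2 change was 0.07 over the tested members and 0.00 over all tested genes. The 6 were the nucleolar gene *Ncl*, the 40S genes *Ddx10*, *Nop14*, *Pdcd11* and *Wdr75*, and the 60S gene *Bop1*, and no box C/D or box H/ACA protein was among them.

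*Ncl* (ENSMUSG00000026234.12, GRCm38 chromosome 1, 86344719 to 86359400) had 372, 381 and 395 CPM in TerminaTOR cells, against 278, 298 and 330 CPM in mCherry cells. All TerminaTOR libraries were higher, and the log2 change was 0.34 ± 0.07 (adjusted p = 0.00059). The call for *Ncl* was kept under all 24 alternative settings, including those that left out a library. *Ncl* overlaps small RNA genes on its own strand, *Snora75* among them. Its coding transcript alone rose by 0.34 (adjusted p = 0.00108 over all transcripts).

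*Ddx10*, a helicase of the processome, had 224, 225 and 210 CPM in TerminaTOR cells, against 168, 181 and 187 CPM in mCherry cells, a log2 change of 0.30 ± 0.07 (adjusted p = 0.00713). *Nop14*, a processome scaffold, had 215, 201 and 210 CPM in TerminaTOR cells, against 162, 171 and 187 CPM in mCherry cells, a change of 0.27 ± 0.08 (adjusted p = 0.0238). *Pdcd11* had 400, 409 and 394 CPM in TerminaTOR cells, against 352, 348 and 335 CPM in mCherry cells, a change of 0.22 ± 0.06 (adjusted p = 0.0257). For these 3 genes the TerminaTOR libraries all lay above the mCherry libraries. *Bop1* had 62.3, 54.1 and 63.1 CPM in TerminaTOR cells, against 35.6, 48.4 and 49.9 CPM in mCherry cells, with mCherry replicate 1 the lowest by far. Its log2 change was 0.42 ± 0.12 (adjusted p = 0.0288), and the call was lost without that library, without TerminaTOR replicate 1 or 3, and with no filter.

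*Wdr75* had 30 reads in TerminaTOR cells and 5 in mCherry cells, a fitted log2 change of 2.44 ± 0.64 (adjusted p = 0.0116). Of its reads 63.2% fell on a single retained-intron transcript, which had 4, 8 and 8 reads in TerminaTOR cells, against 2, 2 and 1 in mCherry cells, and which alone had an adjusted p of 0.196 in edgeR's test over all transcripts. Only the *Ncl* call was kept under every setting run. The *Ddx10* call was lost without mCherry cycloheximide replicate 1 or TerminaTOR replicate 1 or 2, and that of *Nop14* without mCherry cycloheximide replicate 1 or 2 or TerminaTOR replicate 1 or 3. The *Pdcd11* call was lost without any 1 of the 6 libraries compared, and that of *Wdr75* with limma-voom and without mCherry cycloheximide replicate 3 or TerminaTOR replicate 2, over the 21 settings that gave it a value. With no filter the *Nop14* and *Pdcd11* calls were lost as well. Without mCherry cycloheximide replicate 1 or TerminaTOR replicate 1 the count fell to 2, and without TerminaTOR replicate 2 or 3 to 3.

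*Ddx21* had 1098, 1017 and 1060 CPM in TerminaTOR cells, against 943, 982 and 951 CPM in mCherry cells, so the libraries did not overlap, but its log2 change of 0.14 ± 0.05 had an adjusted p of 0.109. Under 4 of 24 settings, DESeq2 and limma-voom among them, *Ddx21* passed the test. *Npm1* had a log2 change of -0.05 ± 0.12, *Fbl* of -0.10 ± 0.12, *Nop58* of -0.05 ± 0.17 and *Dkc1* of 0.19 ± 0.14, with adjusted p-values between 0.535 and 0.925. *Utp15*, a t-UTP gene named here after its values were seen, was lower in value in all 3 TerminaTOR libraries, with 72.6, 77.5 and 77.5 CPM against 84.2, 92.0 and 87.8 CPM in mCherry cells, and did not pass the test (adjusted p = 0.21).

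The rapamycin and TerminaTOR effects share no library, and their difference was tested in the same fit, with the limit that rapamycin was measured without cycloheximide and TerminaTOR with it. The rapamycin effect was the larger for 22 of 39 members and the smaller for 1, against 11.6% and 12.4% of all tested genes. The differences were 1.24 ± 0.15 for *Heatr1*, 1.19 ± 0.10 for *Noc3l*, 1.08 ± 0.11 for *Rrp12* and 0.96 ± 0.11 for *Rrs1* on the log2 scale. *Heatr1* had 35.8, 37.2 and 36.9 CPM in TerminaTOR cells, against 36.2, 41.3 and 34.6 CPM in mCherry cells, and *Noc3l* had 176, 163 and 195 CPM against 160, 186 and 182 CPM, so the groups overlapped for both. For *Ncl* the 2 effects were 0.36 and 0.34, with a difference of 0.02 ± 0.10 (adjusted p = 0.928). *Wdr75* was the member with the smaller rapamycin effect, with a difference of -2.44 ± 0.75, and this call was lost without mCherry cycloheximide replicate 3.

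**Figure D4:**
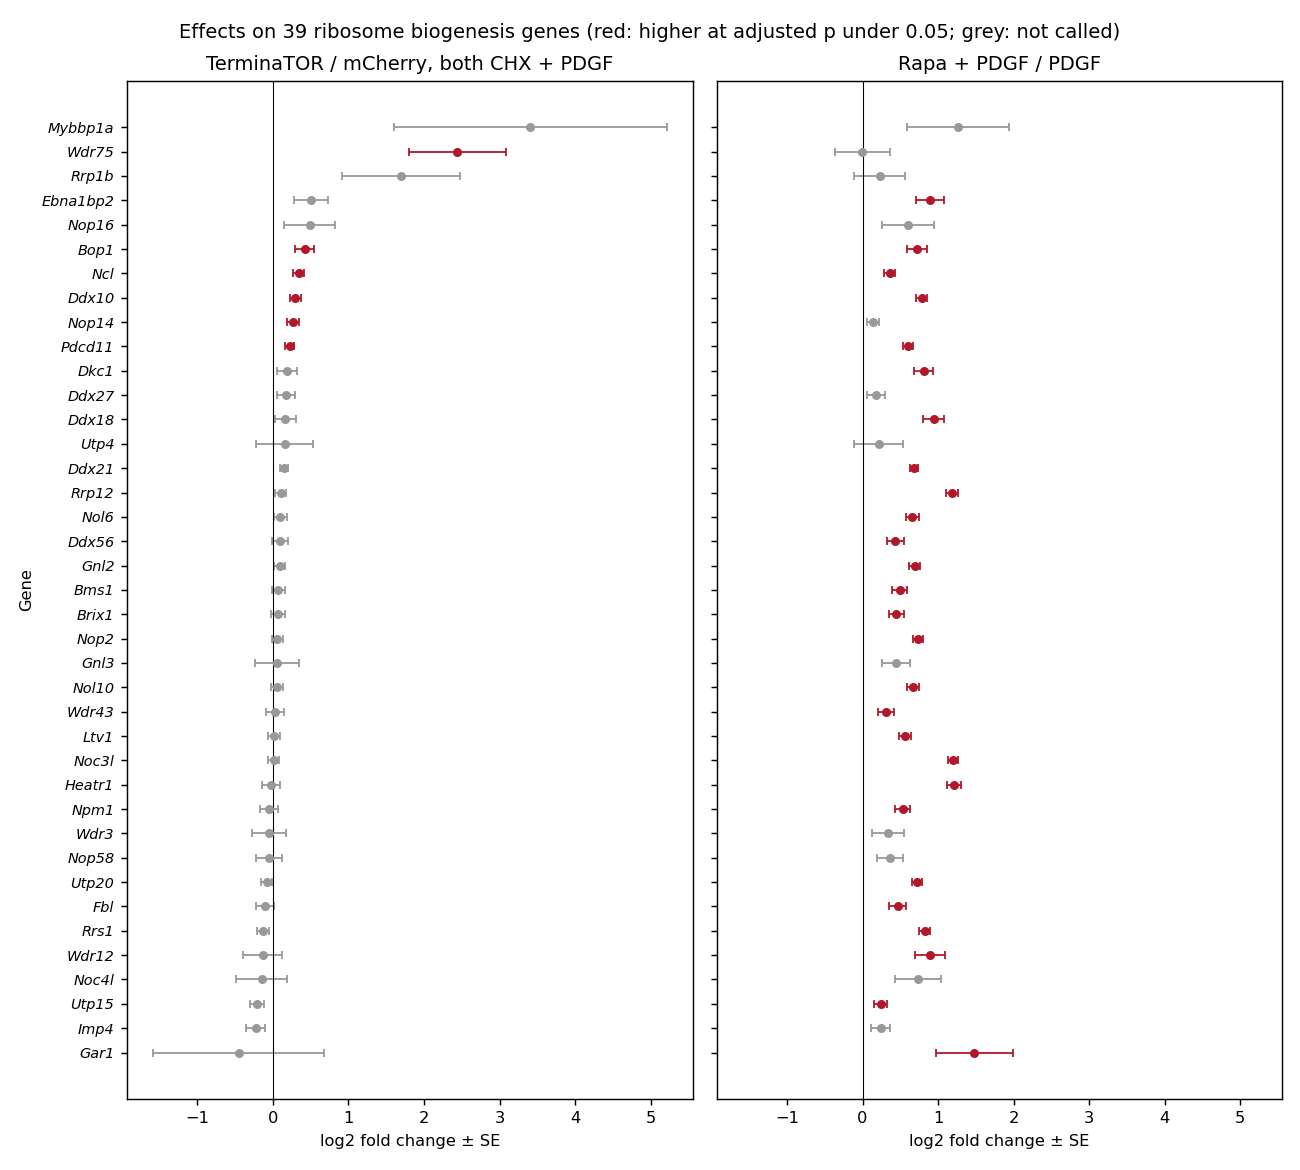
Log2 fold change ± SE of the 39 tested members with TerminaTOR (left panel, under cycloheximide and PDGF) and with rapamycin (right panel, with PDGF), in the order of the TerminaTOR effect; red points had an adjusted p under 0.05. There are 6 red points on the left and 27 on the right, all at positive values.

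The difference between members with and without the E-box was not tested. The 7 tested members with an E-box in their promoter window had median log2 changes of 0.03 with TerminaTOR, -0.46 with cycloheximide, 0.56 with rapamycin and 0.65 with PDGF. The 25 without it had medians of 0.09, -0.51, 0.60 and 0.66 in the same comparisons. With TerminaTOR 0 of the 7 and 5 of the 25 rose, and with cycloheximide 6 of the 7 and 16 of the 25 fell, while 0 and 4 rose. Of all tested genes, 2.35% rose with TerminaTOR, and with cycloheximide 19.6% fell and 21% rose. With PDGF, *Nop2* rose by 0.62 ± 0.07 and *Imp4* by 0.49 ± 0.12, and with rapamycin *Nop2* rose by 0.73 ± 0.07 while *Imp4* had a log2 change of 0.24 and an adjusted p of 0.136. Windows were missing from the table for *Bop1*, *Rrs1*, *Npm1*, *Rrp12*, *Gnl2*, *Nol6* and *Fbl*.

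A further list of 98 genes of ribosome biogenesis, none of them a member, was set beside the members, and 80 of these passed the filter. With PDGF 35 rose and 1 fell, the rises led by *Utp25* (2.85 ± 0.58) and *Nol12* (2.08 ± 0.38) and the fall that of *Tsr3* (-0.32 ± 0.12). With rapamycin 36 rose, led by the processome gene *Mphosph10* (1.498 ± 0.23) and *Nle1* (1.42 ± 0.55), and 0 fell with edgeR, DESeq2 or limma-voom, with 1 lower at an unadjusted p under 0.05. With cycloheximide 37 fell, most of all *Nle1* (-4.56 ± 0.99) and *Mdn1* (-4.28 ± 1.10), partners in 60S maturation, and 5 rose, led by *Shq1*, a box H/ACA assembly factor (1.29 ± 0.40), and *Ddx31* (0.51 ± 0.15). With TerminaTOR 0 passed the test in either direction with edgeR or DESeq2, where limma-voom called 1 lower, and 2 rose and 2 fell at an unadjusted p under 0.05. Of all tested genes, 20.1% rose and 16.9% fell with PDGF, and 16.3% rose and 16.1% fell with rapamycin. With cycloheximide 21% rose and 19.6% fell, and with TerminaTOR 2.35% rose and 2.57% fell, so the TerminaTOR counts were near the shares of all genes. The medians over the 80 listed genes were 0.57 with PDGF, 0.52 with rapamycin, -0.50 with cycloheximide and 0.04 with TerminaTOR.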

How the data were processed

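The authors deposited read counts per transcript for 15 libraries. Reads were aligned with HISAT2 2.2.1 and counted with HTSeq 0.9.1, with R 4.1.0 also named, per the submitters' processing notes, which give hg38 as the genome build; the transcript IDs are those of mouse. Of 142446 transcripts, 141536 matched GENCODE M21 (GRCm38) and were summed per gene; the 910 unmatched held 0.0309% of counts. Genes passing edgeR's filterByExpr (minimum count 10, 5 groups) numbered 10603. They were scaled by TMM and fitted with 1 mean per group and 10 residual degrees of freedom, by edgeR 4.0.16's quasi-likelihood test in R 4.3.3, with Benjamini-Hochberg adjustment and a threshold of 0.05. Standard errors were obtained from each log2 change and its F statistic (|log2 change|/√F). DESeq2 1.42.0, limma 3.58.1 (voom), other scalings, other filters and leaving out each library were alternatives.

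The members and gene lists were chosen with earlier results of these data known. In the 4 main comparisons (PDGF, rapamycin, cycloheximide and TerminaTOR) the text names *Ddx21*, *Ncl*, *Npm1*, *Fbl*, *Nop58* and *Dkc1* (*Nop56*, also on that list, had too few reads to test), up to 8 called members with the largest rises and 8 with the largest falls (mean log2 CPM 1 or higher), and called members that moved against most. Other genes were named after their values were seen.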

Additional observations from a re-analysis of the deposited data

How the results depend on the processing

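Over 24 alternative settings (21 to 23 for *Gar1*, *Mybbp1a*, *Gnl3*, *Rrp1b*, *Utp4* and *Wdr75*, which some settings gave no value), calls were kept in each setting that gave a value for 23 of 27 members with PDGF, 24 of 27 with rapamycin, 28 of 31 with cycloheximide and 1 of 6 with TerminaTOR. With scaling by library totals the median log2 change of all genes was -0.26 with PDGF, -0.10 with rapamycin, -0.13 with cycloheximide, 0.03 with TerminaTOR and -0.40 with cycloheximide against no PDGF. Of the genes called, the share that was higher was then 30.7% with PDGF (54.3% with TMM), 35.7% with rapamycin (50.3%), 39% with cycloheximide (51.8%) and 60.5% with TerminaTOR (47.7%). Under it 2 members fell with PDGF, 3 rose with cycloheximide, 7 were higher and 19 lower with cycloheximide against no PDGF (median -0.24; all genes 1615 and 4400), and 2 had a smaller rapamycin than TerminaTOR effect. Signs then reversed with PDGF for *Utp20* (-0.0392) and *Dkc1* (-0.0807), with rapamycin against no PDGF for *Bms1* (-0.0319), and with cycloheximide against no PDGF for *Imp4* (-0.0684), *Rrp12* (-0.0579), *Nop14* (-0.10) and *Ddx10* (-0.0146). The cause was not tested.

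With no filter 3 members rose with cycloheximide and 3 with TerminaTOR; with a mean count of at least 10, or with protein-coding transcripts only, 3 rose with cycloheximide. No member (0) had the smaller rapamycin effect with protein-coding transcripts only or with the most-read transcript alone, an alternative chosen after seeing the data. Leaving out 1 library gave 3 to 5 members higher with cycloheximide, 2 to 6 with TerminaTOR, and 0 to 1 with the smaller rapamycin effect. Over all 24 settings the log2 change of *Nop58* with cycloheximide ran from -0.17 to 0.0269, and that of *Npm1* with TerminaTOR from -0.12 to 0.00567.

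Replicate numbers were shared between groups, but over 30 same-numbered pairs the correlation of deviations ran from -0.145 to 0.218, 5 were over 0.1, and 7 of 15 libraries correlated best with their own number. With the replicate block, 27 members rose with PDGF, 27 with rapamycin and 6 with TerminaTOR, and 26 fell and 5 rose with cycloheximide.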
